A study of Homo sapiens with 95 samples.

Results

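The response to NNK, the nitrosamine ketone formed from nicotine during tobacco curing and smoking, was described in AALE cells, an immortalized human bronchial epithelial line. The members were the 18 wells given NNK at 490 µM and the 18 wells given the DMSO vehicle in 6 populations, 3 wells per population and chemical, so 36 of the 95 wells in the series. Populations overexpressed NRF2 (the gene NFE2L2), FGFR1 or PIK3CA, or an empty vector with the reporter HcRed as their control. Others carried a CRISPR knockout of FAT1, or the pSpCas9-EGFP plasmid PX458 with no guide RNA (GFP) as its control. All cells shared the AALE background and were confluent before exposure. The length of exposure and whether a modified population was 1 clone are not given in the sources used here. NRG1 cells were left out because of a measured value, an NNK well that stood apart from the other wells, and CDKN2A cells because their NNK wells included only 1 with a 1-digit replicate number. The left-out wells are described at the end.

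NNK is a procarcinogen: cytochrome P450 enzymes of the airway hydroxylate it into species that methylate and pyridyloxobutylate DNA, and carbonyl reductases convert it to the alcohol NNAL, which is glucuronidated and excreted. It also binds nicotinic and beta-adrenergic receptors, through which it can start MAP kinase signalling. The aryl hydrocarbon receptor (AHR), which binds polycyclic hydrocarbons such as benzo[a]pyrene and turns on CYP1A1 and CYP1B1, is the better known transcriptional sensor of smoke.

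Expression was measured by 3′ digital gene expression, which counts unique molecular identifiers (UMIs) at the 3′ end of transcripts, and is given in CPM, the count scaled to a common library size. Total counts ran from 1168645 to 1765693 in DMSO wells and from 692446 to 1702220 in NNK wells, with means of 1376441 ± 154274 and 1168225 ± 247881 (SD, n = 18 each; permutation p = 0.00055, two-sided). DMSO wells lay in plate rows A and B and NNK wells in rows G and H, so chemical and plate row cannot be told apart. The barcode that labels each well held 1 G or C base in every DMSO well and 5 in every NNK well. Chemical and barcode composition thus cannot be told apart either. The mean NNK minus DMSO difference was -294629 counts in the populations of rows A and G (HcRed, GFP, FGFR1 and PIK3CA) and -35390 in those of rows B and H (NRF2 and FAT1; permutation p = 0.698). Fold changes also moved with transcript length, as described with the gene groups. The modified gene stood above its HcRed control in NRF2 cells (NFE2L2 120 to 168 against 35.2 to 50.0 CPM over 6 wells each), in FGFR1 cells (17.8 to 25.4 against 1.64 to 6.79 CPM) and in PIK3CA cells (5.85 to 16.5 against 0 to 4.09 CPM). FAT1 counts in the knockout cells (0 to 4.18 CPM) lay below those of GFP cells (4.2 to 11.3 CPM). The cells kept epithelial transcripts such as KRT5, KRT17 and CDH1, while the summed secretory cell markers reached at most 0.76 CPM in any of the 36 wells and SCGB3A1, MUC5B and BPIFA1 had no count.

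Across the 6 populations, 2034 of 11247 genes passed an adjusted p of 0.05 (18.1% of the genes tested), 1071 of them higher under NNK (9.52%) and 963 lower (8.56%). The changes were mostly small: the median log2 fold change was 0.22 among the higher genes and -0.44 among the lower genes, and 27 and 11 genes respectively moved by more than 1. CYP1A1 had the largest rise, 2.15, and MYLIP the largest fall among genes past the threshold, by 1.57 on the log2 scale. The direction was shared by all 6 populations for 808 of the 1071 higher genes (75.4%) and 670 of the 963 lower genes (69.6%). These genes were picked by the fit over the same wells, which favors genes of 1 direction. The shares are therefore no separate evidence of a shared response. The groups did not overlap in any of the 6 populations, with every NNK well above every DMSO well, for 57 genes (0.507% of those tested), and with every NNK well below for 14 (0.124%). Fitted alone, the 4 populations of rows A and G gave 1122 genes and the 2 of rows B and H gave 765.

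Within single populations, 3 wells against 3 with the spread estimated over all 36 wells, fewer genes passed. HcRed cells had 96 higher (0.854%) and 27 lower (0.24%), so 123 in all (1.09%). NRF2 cells had 70 higher (0.622%) and 27 lower (0.24%), in all 97 (0.862%), and FGFR1 cells 99 higher (0.88%) and 32 lower (0.285%), in all 131 (1.16%). PIK3CA cells had 52 higher (0.462%) and 28 lower (0.249%), or 80 (0.711%). GFP cells had 63 higher (0.56%) and 7 lower (0.0622%), or 70 (0.622%), and FAT1 cells 132 higher (1.17%) and 86 lower (0.765%), or 218 (1.94%). Higher genes outnumbered lower genes in each, and leaving out a single well moved these counts by more than 1.5 times in every population, so they give no order of response.

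EGR1, an immediate early transcription factor induced within minutes by growth factor and stress signalling, rose in all 6 populations. It lies at chr5:137801168-137804992 in hg19. Its level ran from 2.87 to 19.8 CPM in DMSO wells (median 9.34) and from 14.1 to 57.3 CPM in NNK wells (median 36). The pooled ranges overlapped because populations differed in baseline, but within each of the 6 populations all 3 NNK wells lay above all 3 DMSO wells. GFP cells were lowest, with 2.87, 3.23 and 3.31 CPM under DMSO and 14.1, 15.8 and 16.5 CPM under NNK. PIK3CA cells were highest, with 14.4, 16.3 and 19.8 CPM under DMSO and 39.2, 46.9 and 57.3 CPM under NNK. The log2 fold change was 1.91 (SE 0.11, adjusted p = 1.8e-25 by limma), a 3.76-fold rise, with population values from 1.48 in PIK3CA cells to 2.21 in FAT1 cells and no detected difference between populations (adjusted p = 0.968).

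The RefSeq promoter window of EGR1 (GRCh38.p14, plus strand, chr5:138465229-138465528, 250 bases before to 50 after the start) is shown because EGR1 is the marker gene of this comparison and CArG boxes, the sites of serum response factor, are its known control elements. Both CArG boxes found in it are in capitals, and the first base of each lies 105 and 83 bases before the transcript start.
EGR1: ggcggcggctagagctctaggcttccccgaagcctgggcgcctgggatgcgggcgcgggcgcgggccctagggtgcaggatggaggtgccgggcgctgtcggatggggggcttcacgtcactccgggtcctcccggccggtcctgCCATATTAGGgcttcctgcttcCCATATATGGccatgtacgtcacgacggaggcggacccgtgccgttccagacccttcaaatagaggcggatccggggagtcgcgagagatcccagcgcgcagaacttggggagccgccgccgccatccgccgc
A CArG box was present on either strand in 454 of 35116 promoter windows (1.29%). Among the 22 immediate early genes tested, 16 had a window and those of EGR1 and SRF held one. The match describes the sequence only, and SRF itself had a log2 change of -0.64 (SE 0.30, adjusted p = 0.138).

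**Figure D1:**
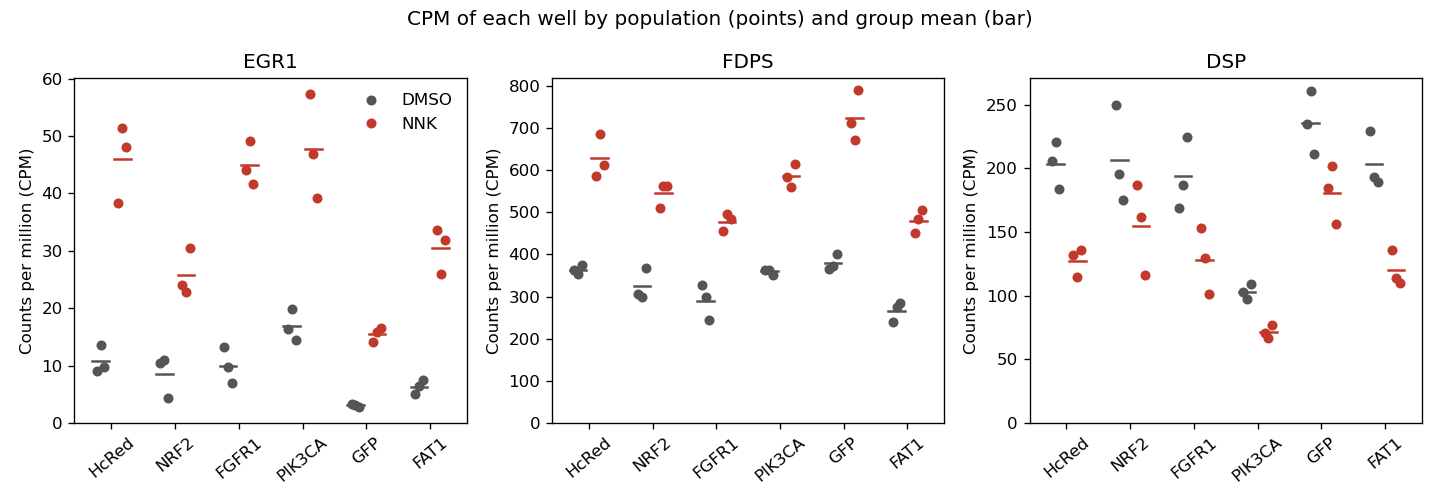
CPM of EGR1, FDPS and DSP (y axis) in each of the 36 wells, by population (x axis), with DMSO in grey, NNK in red and the mean of 3 wells as a bar. EGR1 and FDPS were above every DMSO well of the same population in each NNK well, and DSP was below in 5 of the 6 populations.

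Of 22 immediate early genes tested, 9 were higher (40.9%), EGR1 among them, and 1 was lower (4.55%), beside 9.52% and 8.56% of all genes. Their median log2 fold change was 0.37, against -0.001 over all genes. FOS, the partner of JUN in the AP-1 factor, ran from 0 to 4.75 CPM under DMSO (median 2.68) and from 4.16 to 17.8 CPM under NNK (median 9.21). Its groups were apart in 5 of the 6 populations, and its log2 fold change was 1.87 (SE 0.21, adjusted p = 1.35e-11). IER2 rose by 0.89 (SE 0.16), JUNB by 0.91 (SE 0.27), JUND by 0.76 (SE 0.21) and IER3 by 0.77 (SE 0.18), all at low counts. BTG2, an antiproliferative gene, was the member that fell, by 0.93 (SE 0.29, adjusted p = 0.0158). JUN, FOSL1 and ATF3, also AP-1 or stress factors, did not pass, with values of 0.56 (SE 0.24), 0.36 (SE 0.31) and -0.17 (SE 0.28).

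Of 20 feedback genes of the ERK kinase cascade 1 was higher and none lower, beside 9.52% and 8.56% of all genes, and 2 were higher with the length and GC trends of each well removed. DUSP1, the phosphatase that switches off MAP kinases, was the member that passed, at 4.31 to 26.3 CPM under DMSO and 8.40 to 53.5 CPM under NNK (log2 fold change 0.97, SE 0.11, adjusted p = 2.99e-11). DUSP6, DUSP4 and CCND1 had values of 0.14 (SE 0.23), 0.42 (SE 0.22) and 0.10 (SE 0.11), none past the threshold. AREG, a ligand of the EGF receptor, rose by 0.86 (SE 0.06, adjusted p = 2.29e-21), from 30.1 to 146 CPM under DMSO to 51.1 to 240 CPM under NNK, and its receptor EGFR fell by 0.44 (SE 0.11, adjusted p = 0.00218). Over the means of the 12 groups of population and chemical, the 5 genes whose level followed EGR1 most closely included TUBA1A (r = 0.924), DUSP1 (0.898), CD63 (0.895) and AREG (0.891), a description over groups that share a chemical.

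Of 14 cytoskeletal targets of serum response factor, 10 did not pass, none was higher and 4 were lower (28.6%, beside 8.56% of all genes). The median was -0.10. The 4 lower genes were ACTB (-0.26, SE 0.03), TPM4 (-0.34, SE 0.08), ACTG1 (-0.20, SE 0.05) and VCL (-0.24, SE 0.09, adjusted p = 0.046). VCL, an adhesion protein, passed the threshold only narrowly and lost it when any of 21 of the 36 wells was left out.

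The genes of cholesterol synthesis were the group with the largest share of higher members. These enzymes convert acetyl-CoA through mevalonate and farnesyl pyrophosphate to sterols, and SREBP-2 turns them on together when sterol in the endoplasmic reticulum is low. Of the 21 members, all of them tested, 16 were higher and none lower (76.2%, beside 9.52% of all genes), and the median log2 fold change was 0.53. Their summed level ran from 1775 to 3063 CPM in DMSO wells (median 2420) and from 3093 to 4513 CPM in NNK wells (median 3768), so the lowest NNK well exceeded the highest DMSO well regardless of population. The median over members was positive in each population, from 0.42 in FGFR1 cells to 0.66 in FAT1 cells, with 17 to 21 members above 0.

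In the mevalonate steps, IDI1, the isopentenyl diphosphate isomerase, ran from 302 to 812 CPM under DMSO (median 569) and from 563 to 1274 CPM under NNK (median 847). All NNK wells lay above the DMSO wells within each of the 6 populations, and its log2 fold change was 0.60 (SE 0.03, adjusted p = 2.21e-26). ACAT2 and HMGCS1, which join acetyl-CoA units, rose by 0.71 (SE 0.05) and 0.56 (SE 0.08). MVD, the mevalonate diphosphate decarboxylase, rose by 1.40 (SE 0.17), at 4.76 CPM under DMSO and 12.8 under NNK on average. Mevalonate kinase, MVK, had a value of 0.42 (SE 0.18, adjusted p = 0.096).

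FDPS, farnesyl diphosphate synthase at chr1:155278539-155290457 in hg19, ran from 239 to 402 CPM under DMSO (median 353) and from 452 to 790 CPM under NNK (median 563). The ranges did not meet, with a log2 change of 0.80 (SE 0.04, adjusted p = 4.31e-33) and population values from 0.71 to 0.95. A processed copy listed as FDPSP2 rose by 1.05 (SE 0.19) at low counts, and because reads can be split between near-identical copies its value is uncertain. FDFT1 and SQLE, which make squalene and its epoxide, rose by 0.52 (SE 0.04) and 0.49 (SE 0.05).

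Late steps rose as well. MSMO1, the methylsterol oxidase, ran from 190 to 616 CPM under DMSO and from 397 to 916 CPM under NNK, and its log2 fold change was 0.76 (SE 0.04, adjusted p = 4.86e-32), with the groups apart in all 6 populations. LSS, NSDHL, SC5D and DHCR7 rose by 0.71 (SE 0.15), 0.70 (SE 0.07), 0.53 (SE 0.05) and 0.57 (SE 0.11), and CYP51A1 by 0.20 (SE 0.05). Besides the list, EBP, a sterol isomerase, rose by 0.68 (SE 0.04) and C14orf1, a scaffold of the demethylation enzymes also called ERG28, by 0.74 (SE 0.03), both with all NNK wells above the DMSO wells in 6 of 6 populations.

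Transport and control genes were less uniform. The transporter STARD4 rose by 0.28 (SE 0.10, adjusted p = 0.0295), whereas the SREBP retention factor INSIG1 (0.13, SE 0.10) and the factor's own gene SREBF2 (0.42, SE 0.34) did not pass. Of the 21 members 14 had a promoter window, and the letters TCACNCCAC of a sterol element lay in the window of SREBF2 alone, beside 1.13% of all windows. Fatty acid synthesis did not rise over DMSO as a group with the sterol genes (median 0.02). Of 10 members 1 was higher (10%) and 2 were lower (20%), beside 9.52% and 8.56% of all genes. ACLY was higher (0.60, SE 0.09), while SCD (-0.24, SE 0.04) and ACACA (-0.33, SE 0.12) were lower. With length and GC trends removed 2 members were higher and 1 lower (median 0.1). ACLY then had a value of 0.68 and SCD of -0.12, and ACACA no longer passed.

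**Figure D2:**
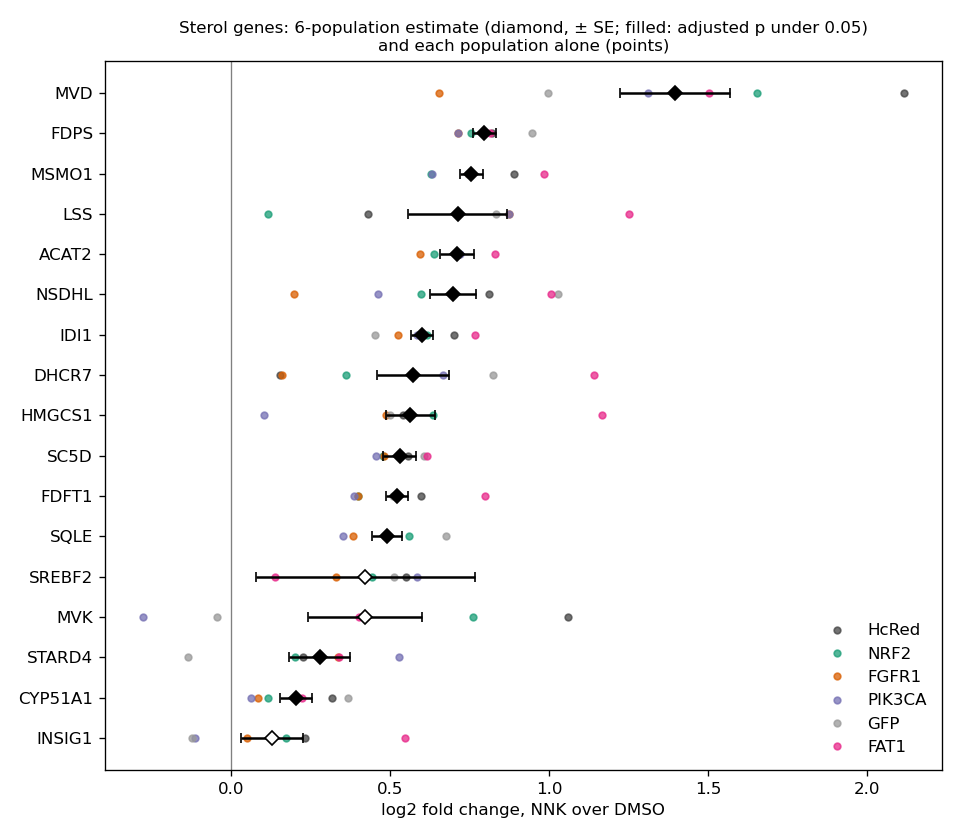
Log2 fold change (x axis), NNK over DMSO, of the 17 sterol genes named in the text, with the 6-population estimate as a diamond with its SE, filled where the adjusted p was under 0.05, and each population as a colored point. The 14 filled diamonds all lie to the right of 0, from CYP51A1 at 0.20 to MVD at 1.40.

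The genes that handle NNK itself were mostly at or near no count. CYP2A6, CYP2A13, CYP2E1 and CYP3A4, the classical activating P450 enzymes among them, had 0 counts over the 36 wells, which allows at most 0.0655 CPM each (3 counts over the summed total, counting error only), and CYP2B6 had 4 in DMSO wells and 2 in NNK wells. Of 13 activation genes 3 could be tested, and PTGS1, a cyclooxygenase, rose by 0.50 (SE 0.16, adjusted p = 0.0165). Among 8 tested genes of carbonyl reduction and conjugation, 3 rose (37.5%, beside 9.52% of all genes) and none fell. CBR1 rose by 0.35 (SE 0.05), AKR1C3 by 0.47 (SE 0.10) and GSTP1 by 0.10 (SE 0.03). AKR1C1 and AKR1C2, close homologs whose reads can be confused, had values of 0.33 (SE 0.20) and -0.05 (SE 0.15).

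Receptors and repair genes showed few changes. None of 3 tested nicotinic and adrenergic receptor genes passed, with CHRNA5 at -0.06 (SE 0.21), and CHRNA7 had 5 counts in DMSO wells and 9 in NNK wells. MGMT, which removes methyl groups from guanine, ran from 5.74 to 15.6 CPM under DMSO and from 5.55 to 18.4 CPM under NNK (0.14, SE 0.13, adjusted p = 0.531). Of 25 repair genes 1 rose, APEX1 (0.17, SE 0.06), and 1 fell, MSH6 (-0.38, SE 0.08), a share below the 18.1% of all genes. Of 22 p53 targets, 3 rose (13.6%) and 2 fell (9.09%), beside 9.52% and 8.56% of all genes. CDKN1A had a value of 0.18 (SE 0.11, adjusted p = 0.274), GDF15 rose by 1.00 (SE 0.31) near 1 CPM, and MDM2 fell by 0.28 (SE 0.08).

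Of 8 genes in the AHR battery 5 were higher (62.5%, beside 9.52% of all genes) and none lower, with a median of 0.44. CYP1A1 ran from 0 to 4.16 CPM under DMSO (median 2.16) and from 4.64 to 14.7 CPM under NNK (median 8.09), with every NNK well above every DMSO well and a log2 change of 2.15 (SE 0.22, adjusted p = 3.13e-13). CYP1B1 rose by 1.28 (SE 0.14), TIPARP by 0.60 (SE 0.11), ALDH3A1 by 0.99 (SE 0.30) and NQO1, the most abundant of the 5 at 160 CPM under DMSO and 192 CPM under NNK on average, by 0.28 (SE 0.04). The receptor AHR and its partner ARNT had values of -0.31 (SE 0.15) and -0.12 (SE 0.14), neither past the threshold.

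The CYP1A1 promoter window (RefSeq, GRCh38.p14, minus strand, chr15:74725479-74725778) is shown because CYP1A1 had the largest rise. The core GCGTG of the AHR element is in capitals. It starts 57 bases before the transcript start, and no other copy lies in this window on either strand.
CYP1A1: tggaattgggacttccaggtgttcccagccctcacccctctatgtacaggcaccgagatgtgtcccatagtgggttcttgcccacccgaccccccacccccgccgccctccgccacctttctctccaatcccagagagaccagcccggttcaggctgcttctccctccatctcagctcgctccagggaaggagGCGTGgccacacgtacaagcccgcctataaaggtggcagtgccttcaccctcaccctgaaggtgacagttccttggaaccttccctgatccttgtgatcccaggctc
These 5 letters occurred in 36.5% of all windows, in 6 of 9 windows of the AHR battery and in 17 of 19 windows of the sterol genes.

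Among 24 NRF2 targets, 10 rose (41.7%) and 3 fell (12.5%), beside 9.52% and 8.56% of all genes, with a median of 0.13. FTL, the ferritin light chain, rose by 0.31 (SE 0.02), PGD of the pentose phosphate pathway by 0.44 (SE 0.04), PIR by 0.57 (SE 0.07) and GPX2 by 0.51 (SE 0.12), while the ferritin heavy chain FTH1 (-0.23, SE 0.03), GSR (-0.41, SE 0.11) and GCLC (-0.40, SE 0.14) fell. The glutathione genes GCLM and SLC7A11 did not pass, at -0.21 (SE 0.15) and -0.22 (SE 0.10).

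Glycolysis was split by gene. ENO1, enolase at chr1:8921059-8939249 in hg19, had the smallest adjusted p of all genes (1.02e-40). It ran from 1571 to 2349 CPM under DMSO (median 2017) and from 2453 to 3611 CPM under NNK (median 3123), without overlap, for a log2 fold change of 0.63 (SE 0.02). TPI1 and PGK1 rose by 0.63 (SE 0.03) and 0.53 (SE 0.03) and ALDOC by 0.66 (SE 0.10). The glucose transporter SLC2A1 (-0.37, SE 0.13), PFKP (-0.32, SE 0.11) and PGAM1 (-0.27, SE 0.09) fell, and LDHA stayed at -0.03 (SE 0.03). Of the 21 genes tested 6 rose (28.6%) and 3 fell (14.3%), beside 9.52% and 8.56% of all genes.

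Among the lower genes with the smallest adjusted p, several encode large proteins of cell junctions and mitosis. The 10 named lower genes had a median transcript length of 8282 bases, beside 3327 for all tested, and fold changes moved with length, as described below. DSP, the desmosome plaque protein desmoplakin, ran from 97.8 to 261 CPM under DMSO (median 195) and from 67.1 to 202 CPM under NNK (median 131), with a log2 change of -0.56 (SE 0.06, adjusted p = 8.91e-14). DST, an adhesion linker, CTNNB1, the adherens junction protein beta-catenin, and the basal integrin ITGA6 had values of -0.44 (SE 0.05), -0.47 (SE 0.05) and -0.59 (SE 0.09). Not all junction genes fell: CDH1, the epithelial cadherin, was the 1 of 6 pan-epithelial markers that passed, and it was higher. With length and GC trends removed CDH1 was higher by 0.63 (SE 0.11, adjusted p = 6.19e-06 by limma). C6orf62 (-0.70, SE 0.06), HNRNPU (-0.52, SE 0.05), PPP1CB (-0.49, SE 0.05) and EIF4G2 (-0.46, SE 0.05) were also lower, with all NNK wells below the DMSO wells in 6 of 6 populations.

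Of 30 cell cycle genes, 6 fell (20%) and 2 rose (6.67%), beside 8.56% and 9.52% of all genes. MKI67, the proliferation marker, fell by 0.62 (SE 0.07), CENPF of the kinetochore by 0.35 (SE 0.04), TOP2A by 0.27 (SE 0.04) and the helicase subunit MCM6 by 0.45 (SE 0.08), whereas PCNA (0.08, SE 0.03) and CCNB2 (0.11, SE 0.04) rose slightly and CCNB1 (0.05, SE 0.03) and CDK1 (0.05, SE 0.04) did not pass. Outside the list, ASPM of the spindle pole fell by 0.73 (SE 0.08), from 37.3 to 64.7 CPM to 21.2 to 36.7 CPM. In bulk wells, fewer cycling cells and less RNA per cell cannot be told apart. The transcripts of MKI67, CENPF and ASPM are also long (12716, 10290 and 10863 bases), and fold changes moved with length, as described below. With length and GC trends removed these 3 genes had values of -0.40, -0.13 and -0.54. Of 12 basal epithelial markers 4 were lower (33.3%) and 2 higher (16.7%), beside 8.56% and 9.52% of all genes. Their median was -0.20, and 3 of the 12 had values above 0. KRT5 (-0.27, SE 0.05) and KRT14 (-0.33, SE 0.08) were among the lower, and S100A2 (0.38, SE 0.03) and KRT17 (0.24, SE 0.05) were higher. With trends removed 4 were lower and 1 higher.

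Subunits of abundant machines rose by small amounts. The share higher was 59.5% of proteasome, 50.6% of oxidative phosphorylation and 63.9% of ribosomal genes, beside 9.52% of all genes. Of 37 proteasome subunits 22 rose (median 0.13), with PSMB5 at 0.49 (SE 0.04), PSMD13 at 0.54 (SE 0.06) and PSMC5 at 0.48 (SE 0.05). Of 81 oxidative phosphorylation subunits 41 rose and 1 fell (median 0.10), among them SDHC (0.67, SE 0.05) and ATP5G1 (0.40, SE 0.03). Of 83 cytosolic ribosomal proteins 53 rose and 1 fell (median 0.08), with RPS23 (0.40, SE 0.02) and RPS19 (0.39, SE 0.03) among the higher members, whose levels are uncertain because ribosomal protein genes have many near-identical copies.

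**Figure D3:**
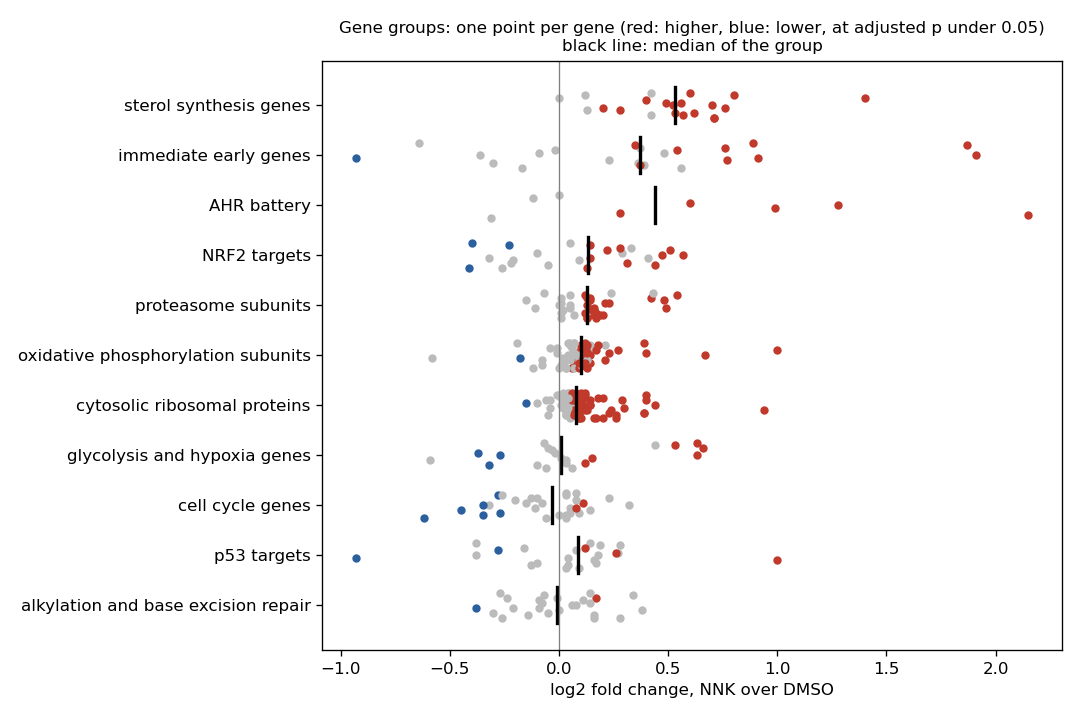
Log2 fold change of each tested gene (x axis), NNK over DMSO, in 11 gene groups, red where higher and blue where lower at an adjusted p under 0.05, grey otherwise, with the group median as a black line. The sterol genes have the rightmost median, 0.53, and the ribosomal protein genes sit close to 0 with a median of 0.08.

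Transcript length moved with these changes. Over 5508 genes with a mean count of at least 10, the Spearman correlation of log2 fold change with the length of the main transcript was -0.46, and with its GC content 0.16, a description across genes that share the same wells. In the shortest of 5 length classes (160 to 1542 bases) 36.1% were higher and 1.9% lower, and in the longest (5703 to 34626 bases) 4.36% were higher and 32% lower. The correlation with length was negative in each population, from -0.22 in GFP cells to -0.43 in FAT1 cells. Median length was 1833 bases for higher genes, 5515 for lower genes, 3327 for all tested and 2962 for the sterol genes.

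**Figure D4:**
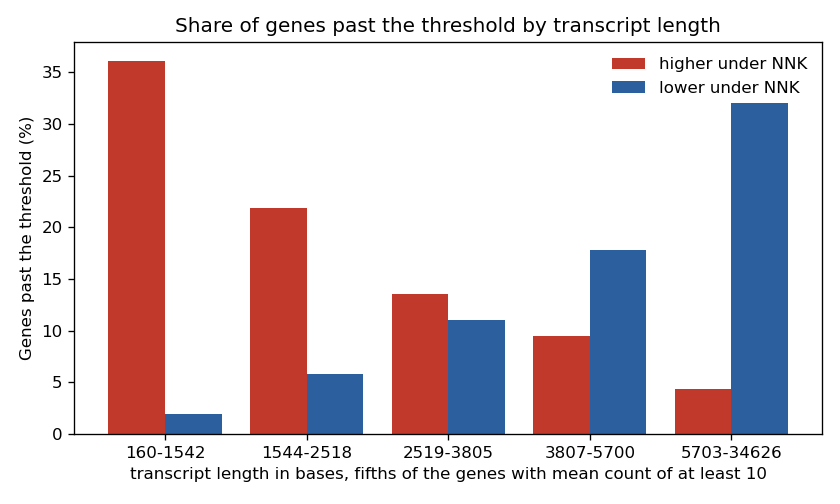
Share of genes past the threshold (y axis, percent) in 5 length classes of the main transcript (x axis, bases), red for higher and blue for lower under NNK. The share of higher genes goes from 36.1% in the shortest class to 4.36% in the longest, and that of lower genes from 1.9% to 32%.

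A fit in which the trend of each well with length and GC content had been subtracted, chosen after the trend was seen, left 854 genes higher and 584 lower of 10963 (7.79% and 5.33%). The sterol count stayed at 16 of 21 higher with a median of 0.53, the immediate early count was 8 of 22, and the AHR count was 5 of 8. EGR1, CYP1A1 and FDPS kept values of 1.93, 2.12 and 0.70. The ribosomal group became 26 higher and 22 lower with a median of -0.01, oxidative phosphorylation 15 higher and 4 lower (median -0.01), proteasome subunits 14 higher and 2 lower (median 0.07), and NRF2 targets 8 higher and 2 lower (median 0.03). Cell cycle genes became 8 lower and none higher of 30, so that PCNA and CCNB2 no longer passed as higher, and the cytoskeletal group 1 higher and 4 lower of 14. The 10 lower genes named by their adjusted p all stayed past the threshold at smaller or similar size, for example DSP at -0.35, MKI67 at -0.40 and C6orf62 at -0.75, although CENPF came down to -0.13 and DST to -0.21. EGFR (-0.22, adjusted p = 0.16), MDM2 (-0.09, 0.527), KRT17 (0.10, 0.131), APEX1 (0.08, 0.33), GDF15 (0.84, 0.0583), ACACA (-0.13, 0.549) and VCL (-0.11, 0.465) no longer passed. GSTP1 and SNHG5 changed sign without passing, at -0.05 and -0.01, and MALAT1 passed at 0.21.

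The test of whether the NNK effect differed between populations passed for 6 genes of 11247 (0.0533%), with 573 at an unadjusted p under 0.05. RPL18, a ribosomal protein gene, had the strongest difference (adjusted p = 3.83e-20). In NRF2 cells it stood at 1344, 1720 and 1846 CPM under NNK against 301 to 339 CPM under DMSO, a log2 fold change of 2.35, while the other populations ranged from 0.21 in PIK3CA cells to 0.83 in FGFR1 cells. S100A2, a calcium-binding basal cell protein, rose by 0.72 in FAT1 cells and by 0.26 to 0.39 in the others (adjusted p = 3.33e-05). HIST1H4C (adjusted p = 0.00303), RPS4X (0.00361) and MALAT1 (0.0111) had their highest values in FGFR1 cells, and FDPSP2 (0.00242) was negative in GFP and FAT1 cells. All 6 are very abundant transcripts or have near-identical copies. None of the genes of the sterol, AHR and immediate early groups was among them. Without FGFR1 DMSO replicate 3 the test passed for 4 genes, the lowest count with 1 well left out.

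NNK was then set against the other smoke chemicals directly, so that no DMSO well entered. Benzo[a]pyrene (BaP, 173 µM), a polycyclic hydrocarbon, could be compared in NRF2, PIK3CA, GFP and FAT1 cells with 12 wells a side. Of 11095 genes 365 differed (3.29%), 253 higher under NNK (2.28%) and 112 lower (1.01%). Of the 21 sterol genes 16 were higher and none lower under NNK (median 0.49), for example FDPS by 0.54 (SE 0.04) and MVD by 0.89 (SE 0.19), as were ENO1 by 0.38 (SE 0.03) and C14orf1 by 0.58 (SE 0.04). CYP1A1 stood at 7.05 to 14.7 CPM under NNK and 10.8 to 98.6 CPM under BaP (-2.52, SE 0.18, adjusted p = 2.99e-16), and CYP1B1 differed by -2.19 (SE 0.16). Of 24 NRF2 targets 13 were lower and 1 higher under NNK, with NQO1 at -0.59 (SE 0.05), FTL at -0.74 (SE 0.02) and FTH1 at -0.63 (SE 0.04). EGR1, at 14.1 to 57.3 CPM under NNK and 9.52 to 45.6 CPM under BaP, differed by 0.26 (SE 0.10, adjusted p = 0.183). A p that misses the threshold does not show equal levels. Of 10 fatty acid synthesis genes 2 were higher and none lower under NNK than under BaP (median 0.32). ACLY was higher by 0.81 (SE 0.10) and SCD by 0.41 (SE 0.05).

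Cigarette smoke condensate (CSC, 24 µg/ml), the particulate mixture, was compared in the HcRed, NRF2, PIK3CA, GFP and FAT1 populations with 15 wells a side, and 1371 of 11171 genes differed (12.3%), 821 higher under NNK (7.35%) and 550 lower (4.92%). Again 16 of 21 sterol genes were higher and none lower under NNK (median 0.71), with FDPS at 0.88 (SE 0.04) and MVD at 1.72 (SE 0.20), while INSIG1 (-0.09, SE 0.11) did not pass. CYP1A1 (-2.27, SE 0.16), CYP1B1 (-2.39, SE 0.14), NQO1 (-0.97, SE 0.04), FTL (-0.86, SE 0.02) and FTH1 (-1.12, SE 0.03) were lower, with 18 of 24 NRF2 targets lower and 1 higher. AREG was lower than under CSC (-0.67, SE 0.06), and 7 of 21 ERK feedback genes were lower, whereas EGR1 was slightly higher (0.32, SE 0.10, adjusted p = 0.0232). The EGR1 difference lost the threshold without HcRed CSC replicate 2, HcRed NNK replicate 2 or PIK3CA NNK replicate 1, at values of 0.29. Length moved with this contrast too (correlation -0.40 over 5406 genes, against -0.14 over 5300 genes for BaP). Against CSC, 2 of 10 fatty acid synthesis genes were higher and 3 lower under NNK (median -0.07). The doses differ between chemicals, so these differences belong to the doses used. The NNK wells of both contrasts were again those of plate rows G and H. Chemical and plate row thus cannot be told apart in these contrasts either.

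**Figure D5:**
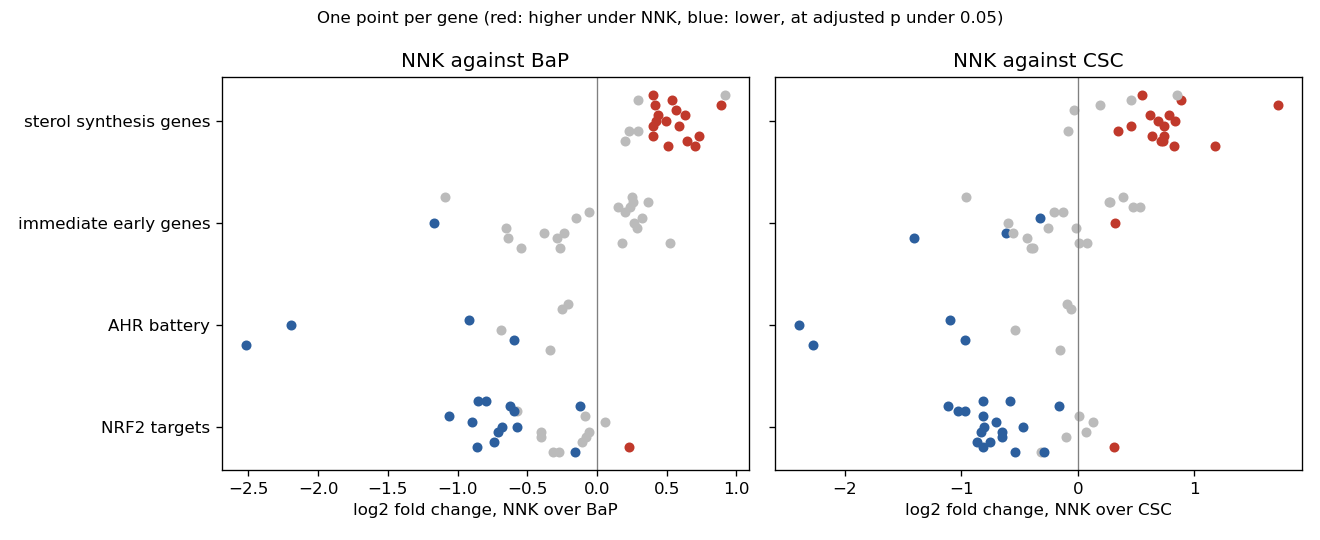
Log2 fold change of NNK over BaP (left) and over CSC (right) on the x axis, one point per tested gene in 4 groups, red where higher and blue where lower under NNK at an adjusted p under 0.05. Sterol genes are at or to the right of 0 apart from 2 in the CSC panel, and CYP1A1 and CYP1B1 are the leftmost points of the AHR battery, near -2.

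The wells left out were compared with DMSO wells of the same population, without a test. In NRG1 cells, NNK replicates 1 and 3 had the sign of the main comparison in 1770 of its 2034 genes (87.0%, against 59.4% of the genes that did not pass), and NNK replicate 2 in 330 (16.2%, against 38.5%). Fold changes in that well correlated with length at 0.47, and in replicates 1 and 3 at -0.32. All the same, EGR1 in NRG1 cells was 28.2, 48.2 and 88.4 CPM under NNK, replicate 2 being the highest, against 9.68 to 15.6 CPM under DMSO. FDPS was 330 CPM in replicate 2 and 640 and 663 CPM in replicates 1 and 3, against 374 to 398 CPM under DMSO. In CDKN2A cells the 3 NNK wells had the sign of the main comparison in 1901 of the 2034 genes (93.5%, against 64.1%), EGR1 was 35.1 to 57.7 CPM against 3.55 to 12.9 CPM under DMSO, and 17 of 21 sterol genes lay above their DMSO mean. With all NRG1 wells added to the fit the count fell from 2034 to 819 genes, and with NNK replicate 2 left out it was 2245.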

How the data were processed

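Each deposited file holds the raw UMI counts of 1 well. The authors obtained these matrices already quantified. Reads had been aligned to hg19 RefSeq transcripts by BWA 0.7.10, and a UMI that mapped to a single gene was counted once. Groups came from sample titles, and the study describes the 3 wells of a condition as biological replicates, so p-values measure the spread between these wells. Genes with a mean count above 1 were fitted by limma-voom 3.58.1 in R 4.3.3 with TMM factors (edgeR 4.0.16), population as covariate and Benjamini-Hochberg adjustment at 0.05. Tests were two-sided. Differences between populations used a moderated F statistic. CPM used TMM factors over all 95 wells. Total counts were compared by 100000 permutations of chemical within population. Named genes were EGR1, the 10 higher and 10 lower genes of smallest adjusted p (mean count of at least 10, same direction in 6 populations), up to 4 passing members per list, genes handling NNK, 4 genes each way against BaP and CSC and the 6 of smallest interaction p. Further list members were named after their values were seen. Members and lists were chosen with earlier results of these data known. Some members of the lists are counted but not reported singly here. Scripts were tested on simulated data. Positions and lengths came from GENCODE on GRCh37 (22438 of 23895 symbols matched). Alternatives included edgeR, DESeq2 1.42.0, other filters and scaling, and leaving out wells.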

Additional observations from a re-analysis of the deposited data

Results flagged for a closer look

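The test of a difference in the NNK effect between the 6 populations passed for RPL18 (adjusted p = 3.83e-20), S100A2 (3.33e-05), FDPSP2 (0.00242), HIST1H4C (0.00303), RPS4X (0.00361) and MALAT1 (0.0111), by limma. With edgeR, S100A2, RPS4X and MALAT1 no longer passed, and with DESeq2, HIST1H4C, RPS4X and MALAT1 did not. RPL18 was higher in NRF2 cells under NNK than under DMSO by 2.35 on the log2 scale. Whether near-identical copies took a part in the differences of RPL18, FDPSP2, HIST1H4C and RPS4X was not tested.

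Wells outside the comparison also showed the rise of EGR1 over their own DMSO wells. The log2 difference was 1.39 in NRG1 NNK replicates 1 and 3, 2.61 in NRG1 NNK replicate 2 and 2.38 in the CDKN2A NNK wells. For FDPS it was 0.76 in NRG1 NNK replicates 1 and 3, -0.22 in NRG1 NNK replicate 2 and 1.05 in the CDKN2A wells. These differences have no test.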

How the results depend on the processing

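Of 9138 values under alternatives, 8806 kept direction and side of the threshold or stayed near the main value, 225 lost the threshold, 9 gained it, 93 moved and 5 changed sign. The replicate numbers showed no strong pairing of the wells: over 18 pairs the correlation of deviations was -0.072 to 0.073, with 0 over 0.1. Of the 18 NNK wells, 10 correlated best with their own number, and a weak pairing was not tested. With the replicate block 1991 genes passed (2034 without), the differences between populations rose from 6 to 14 genes, and HcRed rose from 123 to 215. edgeR gave 2153 genes and DESeq2 1932. Thinning gave 1349 genes, 512 of them lower. No low-count filter gave 1793 higher and 1061 lower, with the median of all genes at 0.075. Adding all NRG1 wells gave 819 genes, 348 higher and 471 lower. The populations of rows A and G gave 1122, 610 higher and 512 lower, and those of rows B and H 765, 490 higher and 275 lower. Trends removed (added after seeing the data) left 584 lower genes. The cause of these moves was not tested, beyond fewer wells or counts where those were removed.

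DESeq2 left 3 genes that differed between populations. Higher immediate early genes fell from 9 to 4 at a mean count over 10, a filter that removed FOS, IER2 and IER3 (mean counts of 7.78, 9.97 and 7.11). In rows B and H they also fell to 4, with a median of 0.516. Higher AHR genes fell from 5 to 3 at a mean count over 10 (median 0.138), where CYP1A1 (mean count 6.14) was removed. They also fell to 3 in rows B and H (median 0.303). Lower cell cycle genes went from 6 to 10 at a mean count over 10. Higher oxidative phosphorylation genes (41) became 15 with trends removed, 5 with all NRG1 wells, 23 without HcRed, 22 in rows A and G and 26 in rows B and H. Higher proteasome genes (22) became 14, 5 and 13 with trends removed, all NRG1 wells and rows B and H. Higher ribosomal genes (53) became 26 with trends removed and 13 with all NRG1 wells. With trends removed the medians were 0.026 for NRF2 targets, -0.009 for ribosomal, -0.007 for oxidative phosphorylation and 0.068 for proteasome genes, and all NRG1 wells gave 0.082 for the proteasome. GSTP1 (-0.052), SNHG5 (-0.014) and MALAT1 (0.21) changed sign with trends removed, and S100A8 (-0.012) and MT1X (-0.012) in rows B and H. The total count difference in rows B and H was -35390.

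Fitted alone, the populations gave 279 genes in HcRed, 205 in NRF2, 63 in FGFR1, 155 in PIK3CA and 356 in FAT1. HcRed gave 219 with DESeq2, and FAT1 gave 361 with median-ratio size factors. Counts by population moved with single wells, so they rank no population: leaving out 1 well gave 40 to 229 in HcRed, 56 to 125 in NRF2, 35 to 269 in FGFR1, 38 to 103 in PIK3CA, 38 to 107 in GFP and 119 to 350 in FAT1. FGFR1 DMSO replicate 3 gave the highest value when left out in 5 of these and the lowest in FGFR1 (35). Depth limits low genes such as FOS and CYP1A1, and chemical cannot be told apart from plate row or barcode composition.

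Leaving out 1 well gave 1801 to 2135 genes in all, 929 to 1139 higher and 856 to 1014 lower, 4 to 8 that differed between populations, 312 to 439 against BaP and 1235 to 1414 against CSC. Higher members ranged over 15 to 17 for sterol, 8 to 10 for immediate early, 8 to 12 for NRF2, 33 to 46 for oxidative phosphorylation, 21 to 22 for proteasome and 47 to 56 for ribosomal genes, and stayed at 5 for AHR, with 6 to 9 lower cell cycle genes.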

Other observations

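Of 14 cytokine and chemokine genes tested, 3 rose under NNK (21.4%, beside 9.52% of all genes) and none fell. The 3 were IL1A (0.80, SE 0.14, at 2.92 to 17.6 CPM under DMSO and 6.89 to 27.6 CPM under NNK), IL1B (0.47, SE 0.14) and CCL20 (0.66, SE 0.22). With length and GC trends removed IL1B (0.38, adjusted p = 0.0561) and CCL20 (0.51, adjusted p = 0.119) no longer passed, by limma. IL18, the most abundant of the 14, stood at 154 CPM under DMSO and 162 CPM under NNK and did not pass. Against CSC, IL1B was lower under NNK, by -1.21 on the log2 scale. Of 19 interferon-stimulated genes none rose and 2 fell (10.5%, beside 8.56% of all genes), IFIT3 (-0.33, SE 0.10) among them, and 4 fell with trends removed.

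The 23 genes of the ATF4 and endoplasmic reticulum stress response were split, with 4 higher and 4 lower. Each share was 17.4%, beside 9.52% and 8.56% of all genes. DDIT4, an inhibitor of mTOR signalling, rose by 0.75 (SE 0.11), the amino acid transporter subunit SLC3A2 by 0.32 (SE 0.06) and the asparagine synthetase ASNS by 0.20 (SE 0.05), while the chaperone DNAJB9 (-1.07, SE 0.23), ATF4 itself (-0.24, SE 0.07) and DDIT3 (-0.29, SE 0.09) fell. Among 17 chaperones 2 rose and 2 fell (11.8% each, beside 9.52% and 8.56% of all genes). The chaperonin subunits CCT3 (0.20, SE 0.03) and CCT5 (0.13, SE 0.03) rose and HSPA9 (-0.38, SE 0.05) and HSPA4 (-0.40, SE 0.07) fell. With trends removed 2 chaperones were higher and 7 lower. Of 9 metallothioneins tested MT1F (0.31, SE 0.09) and MT1X (0.11, SE 0.03) rose, but with trends removed neither passed (0.22, adjusted p = 0.0741, and 0.02, adjusted p = 0.775) and the group had 0 higher and 1 lower. In the squamous differentiation group of 16, 2 rose (12.5%) and 1 fell (6.25%), beside 9.52% and 8.56% of all genes. S100A7 rose by 0.87 (SE 0.21) and S100A8 by 0.15 (SE 0.05), while the keratin KRT6A (-0.20, SE 0.05) fell. With trends removed S100A8 no longer passed (0.05, adjusted p = 0.581).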
